A study of Mus musculus with 8 samples.

Results

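Pancreatic islet cells carry G-protein-coupled receptors through which hormones, lipids and neurotransmitters adjust glucose-stimulated insulin secretion, and the mRNA of 10 of them was examined in islets that overexpress uncoupling protein 2 (UCP2). The receptors were *Glp1r*, *Gipr*, *Gcgr*, *Gpr119*, *Adcyap1r1*, *Ffar1*, *Chrm3*, *Adra2a*, *Sstr3* and *Galr1*. They were taken as every probe that carries one of these symbols in the deposited annotation, which gave 14 of the 56605 probes on the array, or 10 of the 26894 genes named on it. All 14 probes cleared the background filter, which asked for a measured signal on 4 or more of the 8 arrays, and were tested.

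Total RNA from 4 islet samples of βUCP2Tg mice and 4 of WT mice was hybridised, each sample to its own one-colour Agilent mouse array. βUCP2Tg mice are on the C57BL/6J background and carry a *Ucp2* cDNA driven by a rat *Ins2* promoter, which directs it to β-cells, and the WT mice are their littermates without the transgene. Animals of both groups were male, and the isolated islets of both groups were kept in RPMI medium with 200 mg/dL glucose for 8 h before extraction. A whole islet also holds α-, δ- and PP cells, vessels and leukocytes, and neither the labels nor the methods say whether a sample is 1 mouse or a pool, so every n, SD and p describes the spread between samples, which may be technical. The receptors were compared between the genotypes to ask whether the inputs that raise or restrain insulin secretion differ at the mRNA level.

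These receptors fall into groups by the G protein they use. *Glp1r*, *Gipr*, *Gcgr*, *Gpr119* and *Adcyap1r1* couple to Gs, which activates adenylyl cyclase, and the cyclic AMP formed acts through protein kinase A and Epac to increase exocytosis of insulin granules when glucose is high. *Ffar1* and *Chrm3* couple to Gq, which activates phospholipase C and so releases calcium from stores and activates protein kinase C. *Adra2a*, *Sstr3* and *Galr1* couple to Gi/o, which lowers cyclic AMP and restrains secretion.

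The array reads each transcript through probes of 60 bases, and the first 30 bases are given, 5′ to 3′, for the receptors on which the comparison turns. They are shown because *Gipr* and *Chrm3* are each read by a pair of different probes, while *Gcgr*, *Ffar1*, *Glp1r* and *Gpr119* rest on a single one.
Gipr, probe A_52_P238468: aatcaactggaaggcaattgggatagacat
Gipr, probe A_55_P2731801: gacgtttcccatctatttccgtacctttcc
Chrm3, probe A_55_P1955681: ggatttgactcttggttcttgcaaagtact
Chrm3, probe A_51_P247853: attcagaaccaccttcaagatgcttctctt
Gcgr, probe A_55_P2056995: agtgttcccatgtgtgttgacatggtccct
Ffar1, probe A_52_P551974: gcctggggccctataatgcctccaatgtgg
Glp1r, probe A_51_P275077: ttgatggtggctatcctgtactgctttgtc
Gpr119, probe A_66_P120384: tccagagaggaccagagaaagcgcctatca
The full probes of the 10 receptors had GC contents between 35.0% and 55.0%, and none shared a stretch of 18 identical bases with any other probe on the array in the same orientation.

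Values are normalized log2 signals, meaning the log2 of the processed spot intensity minus the 75th percentile of its array, so that 0 is the level of the 75th percentile and 1 unit is a 2-fold difference. They are listed for replicates 1 to 4 in order. Probes differ in affinity, so levels are compared between arrays for 1 probe and never between probes. A probe was called when limma's adjusted p, over all 35363 probes tested, was under 0.05 and the fold change over 1.5. This rule took in 145 probes, which is 0.41% of those tested. The share with higher signal in βUCP2Tg islets was 0.206%, and the share with lower signal was 0.204%. Without an adjustment, 25.2% of probes had p under 0.05 (9.99% higher and 15.2% lower), and the 4 values of one group lay entirely above or below those of the other for 12.4% (7.17% with βUCP2Tg lower).

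The arrays themselves differed before any receptor was considered. *Ucp2* reached 7.38 ± 0.31 (SD, n = 4) in βUCP2Tg and 1.15 ± 0.23 (SD, n = 4) in WT islets on its brighter probe, A_51_P297105, and each array matched its label. Its other probe, A_52_P90265, gave 0.85 ± 0.06 and 0.41 ± 0.22 (adjusted p = 0.0987). WT replicate 1 nevertheless correlated less with the other WT arrays (mean Pearson's r = 0.974 over probes) than with the βUCP2Tg arrays (0.983), and the scanner marked 2 of its 10 quality metrics as out of range, as it did for WT replicate 3. βUCP2Tg replicate 4 correlated about equally with its own group (0.987) and with WT (0.985), as did WT replicate 4 (0.983 and 0.982). Receptor values are therefore also given with arrays left out. The summed signal of 10 β-cell markers ranged from 10.22 to 10.63 in βUCP2Tg and from 10.57 to 10.62 in WT islets. That of 7 α-cell markers ranged from 8.22 to 8.54 and from 8.04 to 8.42, and that of 4 δ-cell markers from 7.56 to 7.85 and from 7.56 to 7.79. That of 2 PP-cell markers ranged from 8.79 to 9.15 and from 8.20 to 8.78, without overlap. The summed signal of 13 acinar markers, which belong to exocrine tissue around islets, was 4.11, 5.46, 4.40 and 7.96 in βUCP2Tg and 7.40, 8.32, 8.74 and 4.81 in WT. Of these, 12 were well above background on all 8 arrays, while *Ptf1a* was on none. The summed signals of 7 macrophage and leukocyte markers (4.03 to 4.18 in βUCP2Tg and 4.18 to 4.39 in WT) and of 5 Schwann and neural markers (-0.14 to -0.02 and 0.16 to 0.30) were lower on every βUCP2Tg array. Those of 6 duct markers (5.10 to 5.36 and 4.65 to 5.89), 8 endothelial markers (4.51 to 4.79 and 4.59 to 4.91) and 6 stellate and pericyte markers (2.62 to 2.90 and 2.41 to 3.38) overlapped. The part of these cell types in the receptor values was not tested.

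**Figure D1:**
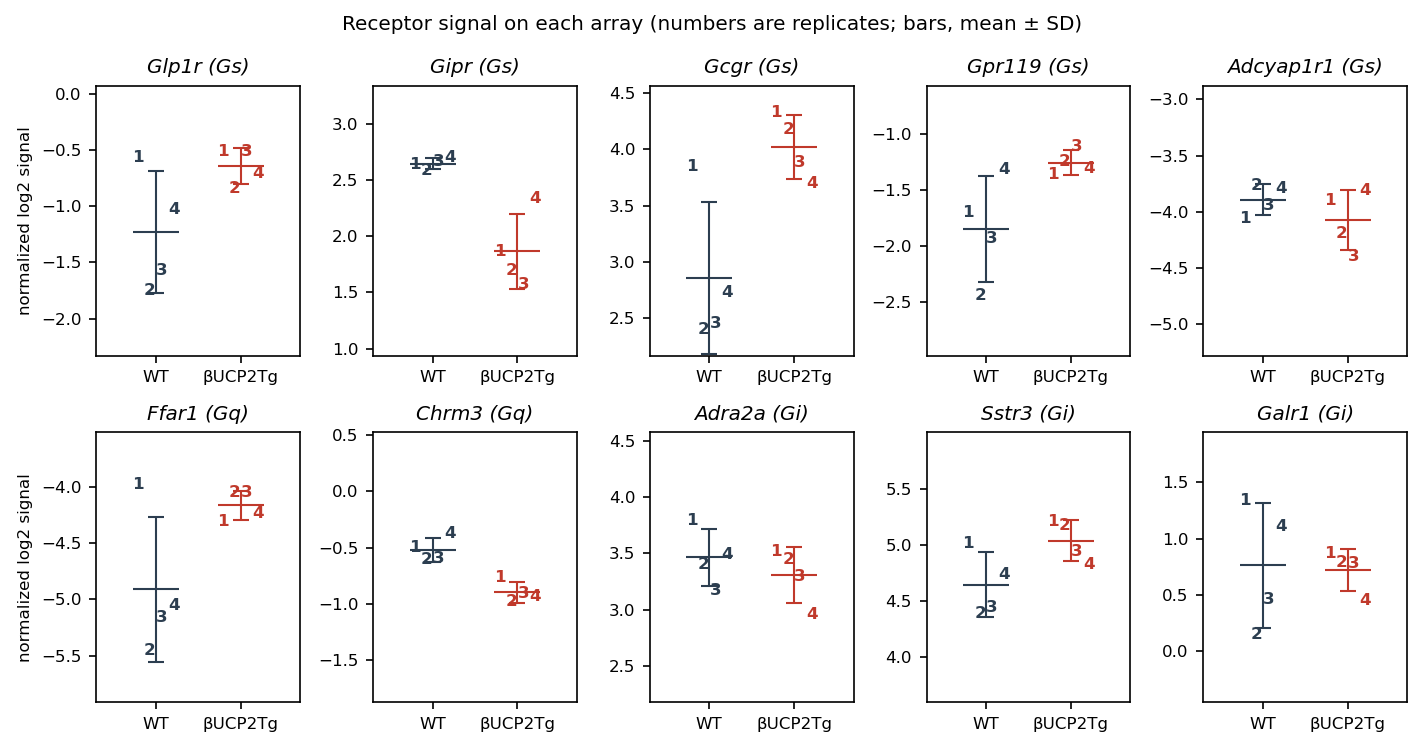
Normalized log2 signal (y axis, 2.4 log2 units high in every panel) of the highest-signal probe of each receptor on the 4 WT arrays and the 4 βUCP2Tg arrays. Numbers are replicates and bars are means ± SD. *Gipr* and *Chrm3* separate the groups with βUCP2Tg lower, while for *Gcgr*, *Ffar1*, *Glp1r* and *Sstr3* WT replicate 1 is the highest WT array and lies near or among the βUCP2Tg arrays.

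*Gipr* was lower in βUCP2Tg islets on both of its probes, and it was the only one of the 10 receptors to be called. It encodes the receptor for the incretin GIP, which is released from the gut after a meal and raises cyclic AMP in β-cells. On the brighter probe, A_52_P238468, the signal was 1.87, 1.70, 1.57 and 2.33 in βUCP2Tg and 2.64, 2.58, 2.66 and 2.70 in WT islets. The WT arrays lay within 0.12 of each other, and all 4 βUCP2Tg arrays lay below them. The log2 fold change was -0.78 (SE 0.16, 95% interval -1.15 to -0.41), a 1.71-fold lower signal, with an adjusted p of 0.0702 that missed the threshold. On the other probe, A_55_P2731801, the signal was -1.20, -1.38, -1.38 and -0.76 in βUCP2Tg and 0.06, -0.34, 0.01 and -0.14 in WT islets. Its log2 fold change was -1.08 (SE 0.16, 95% interval -1.45 to -0.70), a 2.11-fold lower signal, with an adjusted p of 0.0456. Groups did not overlap on either probe, and the 2-sided exact permutation p of the brighter probe was 0.0286, the smallest that 4 against 4 arrays allows. βUCP2Tg replicate 4 was the highest transgenic array on both probes. Without it the brighter probe gave a log2 fold change of -0.93 with an adjusted p of 0.0200, and without WT replicate 1 it gave -0.78 with 0.0325. Leaving out any other single array ended the call, although the log2 fold change of the brighter probe stayed between -0.80 and -0.68. In those 6 fits only 8 to 25 probes were called on the whole array, against 145 with all arrays. The call was also lost with no filter on dim probes, with a filter at 1 array, with the methods' t-test after adjustment, and with the replicate number as a block. In whole islets, fewer cells of a type and less RNA per cell cannot be told apart.

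*Gcgr*, the receptor for glucagon, through which α-cells stimulate neighbouring β-cells, had the largest difference among the 10 receptors by its highest-signal probe. The signal was 4.33, 4.18, 3.88 and 3.69 in βUCP2Tg and 3.85, 2.40, 2.45 and 2.72 in WT islets. WT replicates 2 to 4 lay below every transgenic array, and WT replicate 1 lay inside the transgenic range. The log2 fold change was 1.16 (SE 0.32, 95% interval 0.43 to 1.90), or 2.24-fold, with an adjusted p of 0.0992 and an exact permutation p of 0.0571, so that it was not called. Without WT replicate 1 it was 1.495 with an adjusted p of 0.0114, and with any other array left out it stayed between 1.01 and 1.27 and was not called. The array with the highest summed acinar signal in βUCP2Tg, replicate 4 (7.96), had the lowest *Gcgr* signal of its group, and WT replicates 2 and 3 (8.32 and 8.74) had the lowest of all. WT replicate 4, with a low acinar signal of 4.81, held 2.72 for *Gcgr*, and WT replicate 1, with 7.40, held the highest WT value of 3.85. A link between the acinar and *Gcgr* signals was not tested. *Gcg*, which encodes the ligand, differed by 0.04 (SE 0.16, adjusted p = 0.893), the smallest difference among the 7 α-cell markers. The median log2 fold change of these markers was 0.14. None of them was called by limma, and 2 had higher signal at an unadjusted p under 0.05, a level that 24.5% of all genes reached.

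*Glp1r*, the receptor for the incretin GLP-1 and the target of drugs such as liraglutide, was measured at -0.52, -0.84, -0.51 and -0.71 in βUCP2Tg and at -0.56, -1.75, -1.58 and -1.03 in WT islets. The transgenic arrays spanned 0.33 and the WT arrays 1.18, with WT replicate 1 again inside the transgenic range and the other WT arrays below it. The log2 fold change of 0.58 (SE 0.25, 95% interval 0.01 to 1.16, adjusted p = 0.192) was not called. Without WT replicate 1 it was 0.81 with an adjusted p of 0.0319. *Glp1r* and *Gipr*, the incretin receptor pair, thus had fold changes of opposite sign, positive for *Glp1r* and negative for *Gipr*, and only that of *Gipr* was called.

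*Gpr119*, a receptor for lipid amides such as oleoylethanolamide, was measured at -1.37, -1.24, -1.11 and -1.31 in βUCP2Tg and at -1.70, -2.44, -1.93 and -1.32 in WT islets. Here WT replicate 4, not WT replicate 1, lay inside the transgenic range. The log2 fold change was 0.59 (SE 0.22, 95% interval 0.09 to 1.09) with an adjusted p of 0.148, and it was 0.39 without WT replicate 2. *Adcyap1r1*, the receptor for the neuropeptide PACAP, was measured at -3.90, -4.19, -4.39 and -3.81 in βUCP2Tg and at -4.06, -3.77, -3.94 and -3.80 in WT islets. The groups overlapped, and the log2 fold change was -0.18 (SE 0.15, 95% interval -0.52 to 0.16, adjusted p = 0.471). It was -0.07 without βUCP2Tg replicate 3 and -0.36 as the mean of its probes. Its other probe, A_51_P259603, was well above background on 3 arrays of each group and gave -0.55 (SE 0.77, adjusted p = 0.687).

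**Figure D2:**
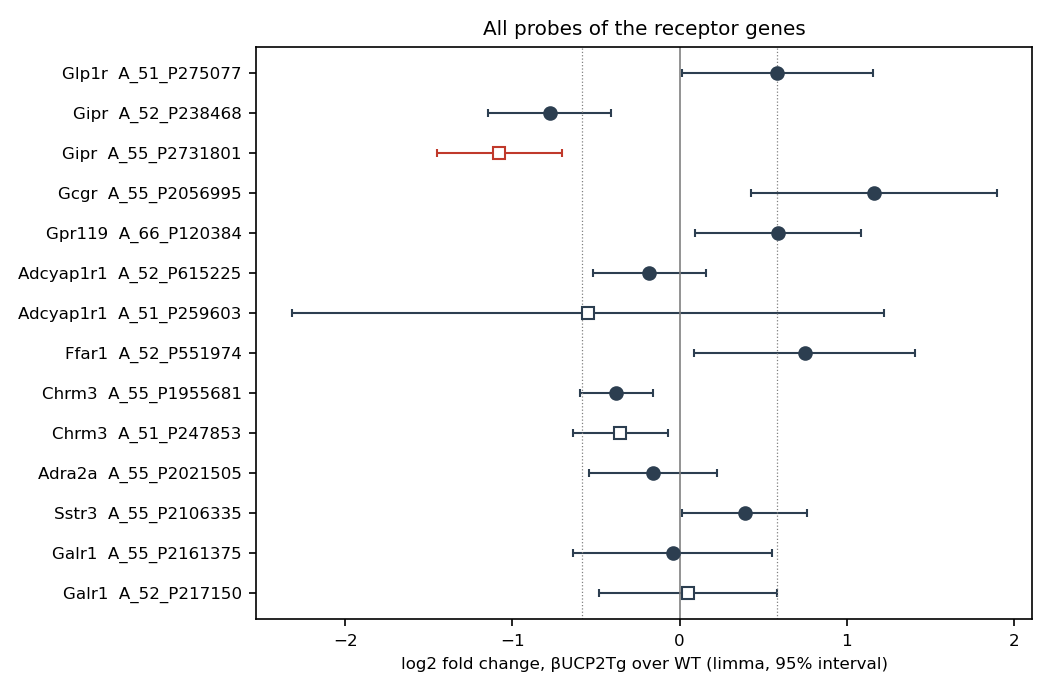
Log2 fold change of βUCP2Tg over WT with its 95% interval from limma (x axis) for each of the 14 receptor probes (y axis); filled circles are the highest-signal probe of a gene, open squares its other probe, and dotted lines a 1.5-fold difference. The called *Gipr* probe, in red, lies at -1.08, and the intervals of both *Gipr* probes, both *Chrm3* probes, *Gcgr*, *Ffar1*, *Glp1r*, *Gpr119* and *Sstr3* are clear of 0.

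Of the Gq-coupled receptors, *Chrm3*, the muscarinic receptor through which vagal acetylcholine acts on β-cells, differed by a small and even amount, with βUCP2Tg lower. The signal was -0.76, -0.98, -0.91 and -0.94 in βUCP2Tg and -0.50, -0.61, -0.60 and -0.37 in WT islets. The groups did not overlap, and the spread was narrow in both. The log2 fold change was -0.38 (SE 0.09, 95% interval -0.60 to -0.16), with an adjusted p of 0.0885 and an exact permutation p of 0.0286, the smallest possible. The other probe, A_51_P247853, gave -0.35 (SE 0.12, adjusted p = 0.138), with 1 WT array inside the transgenic range. Neither probe reached a 1.5-fold difference, and with each array left out in turn the value of the first stayed between -0.42 and -0.33.

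*Ffar1* encodes GPR40, the receptor for long-chain fatty acids and the target of the agonist fasiglifam. Its signal was -4.30, -4.05, -4.05 and -4.24 in βUCP2Tg and -3.98, -5.45, -5.16 and -5.05 in WT islets. WT replicate 1 was above every transgenic array and the other 3 WT arrays were below them. The log2 fold change was 0.75 (SE 0.29, 95% interval 0.09 to 1.41) with an adjusted p of 0.160, and without WT replicate 1 it was 1.06 with an adjusted p of 0.0124. This probe was dim, and with the normexp background correction in place of the scanner's own the log2 fold change was 0.03 (adjusted p = 0.851).

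None of the Gi/o-coupled receptors was called. *Sstr3*, a somatostatin receptor found on primary cilia, was measured at 5.21, 5.17, 4.94 and 4.83 in βUCP2Tg and at 5.02, 4.39, 4.44 and 4.74 in WT islets. Only WT replicate 1 lay inside the transgenic range, and the log2 fold change was 0.39 (SE 0.16, 95% interval 0.02 to 0.76, adjusted p = 0.183). Without WT replicate 1 it was 0.51, under the 1.5-fold limit, with an adjusted p of 0.0455. *Sst*, its ligand from δ-cells, differed by -0.04 (SE 0.12, adjusted p = 0.876).

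*Adra2a*, the α2A-adrenergic receptor through which catecholamines block insulin release, was measured at 3.52, 3.45, 3.30 and 2.96 in βUCP2Tg and at 3.79, 3.40, 3.17 and 3.49 in WT islets. Its log2 fold change was -0.16 (SE 0.17, 95% interval -0.54 to 0.23, adjusted p = 0.584). *Galr1*, a receptor for the inhibitory neuropeptide galanin, was measured at 0.87, 0.79, 0.78 and 0.45 in βUCP2Tg and at 1.34, 0.15, 0.46 and 1.10 in WT islets. Of the WT arrays 1 lay inside the transgenic range and the others on both sides of it, and the log2 fold change was -0.04 (SE 0.26, 95% interval -0.64 to 0.55, adjusted p = 0.936), with 0.05 on its other probe. *Gal*, the ligand, differed by 0.33 (SE 0.10, adjusted p = 0.117) without overlap between the groups.

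As a set, 1 of the 10 receptors, *Gipr*, was called, on its dimmer probe, beside 0.41% of all probes tested. No receptor was called on its highest-signal probe. On those probes 7 had an unadjusted p under 0.05, beside 24.5% of 17857 genes counted in the same way. The count of 7 fell to 3 without βUCP2Tg replicate 3 or WT replicate 3, and to 4 without βUCP2Tg replicate 2, WT replicate 2 or WT replicate 4. Over all probes, 8922 of 35363 were at that level with all arrays. That number was 6086 of 34946 without βUCP2Tg replicate 3 and 6030 of 34861 without WT replicate 3. It was 5646 of 35080 without βUCP2Tg replicate 2, 6419 of 34894 without WT replicate 2 and 8787 of 35254 without WT replicate 4. The 7 were *Gcgr*, *Ffar1*, *Gpr119*, *Glp1r* and *Sstr3* with higher and *Gipr* and *Chrm3* with lower signal in βUCP2Tg islets. Only *Gipr* and *Chrm3* had groups without overlap, 2 of 10 beside 13.1% of genes. The median log2 fold change of the 10 was 0.17 and that of all probes tested was -0.02, with 90% of all probes between -0.75 and 0.59. Both directions occurred among the Gs-coupled and the Gq-coupled members of these 7, and *Sstr3* was the only Gi/o-coupled one.

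The spread among replicates was uneven, and the SD was larger in WT than in βUCP2Tg islets for 8 of the 10 highest-signal probes, *Gipr* and *Adcyap1r1* being the exceptions. Leaving out WT replicate 1 raised the number of receptors called from 1 to 4, namely *Gcgr*, *Ffar1*, *Glp1r* and *Gipr*, while the share of all probes called rose from 0.41% to 10.8%. It raised the receptors without overlap from 2 to 6, beside 30% of all probes. Leaving out βUCP2Tg replicate 4 kept *Gipr* as the only receptor called, beside 4.18% of all probes. Leaving out any of the other 6 arrays gave no call among the 10, and 8 to 25 calls among all probes. With both WT replicate 1 and βUCP2Tg replicate 4 left out, the same 4 receptors were called, with log2 fold changes of 1.60 for *Gcgr*, 1.09 for *Ffar1*, 0.83 for *Glp1r* and -0.93 for *Gipr*, beside 16% of all probes. With both WT replicate 1 and WT replicate 3 left out, *Gcgr* and *Ffar1* were called, beside 0.799% of all probes. The summed acinar signal of WT replicate 1 (7.40) was within the range of the other WT arrays, and its β-cell signal (10.62) was the highest of the WT arrays. It had the lowest WT signal for duct (4.65), stellate and pericyte (2.41), PP-cell (8.20), δ-cell (7.56), endothelial (4.59) and Schwann and neural markers (0.16).

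**Figure D3:**
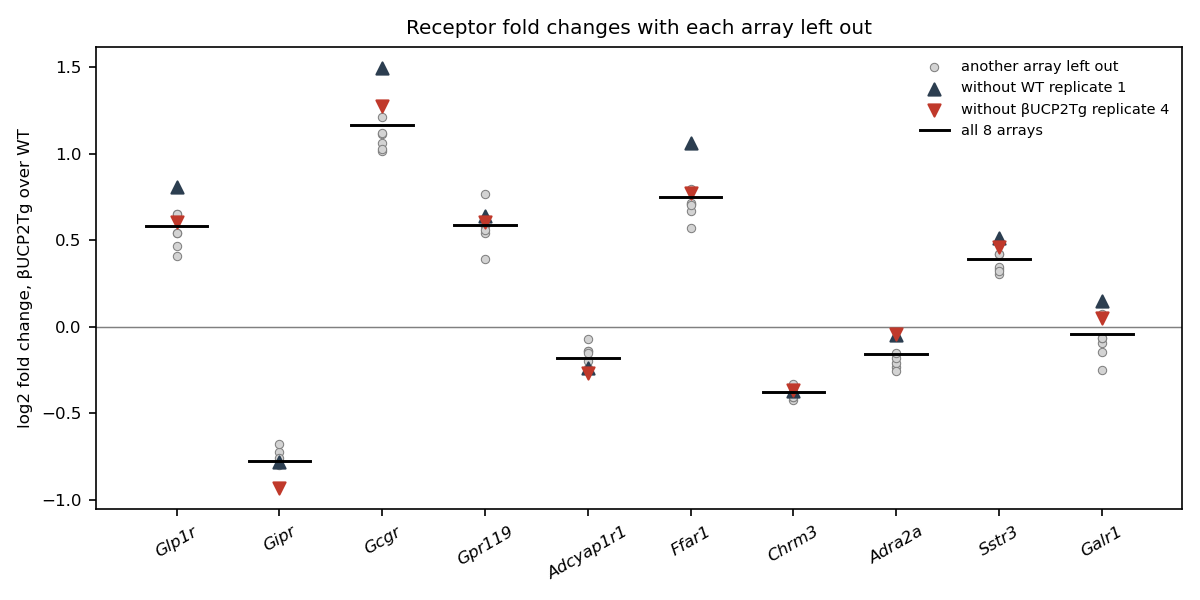
Log2 fold change of βUCP2Tg over WT (y axis) for the highest-signal probe of each receptor (x axis), with all 8 arrays (black lines) and with each array left out in turn (points). Without WT replicate 1 (blue triangles) *Gcgr* moved from 1.16 to 1.495, *Ffar1* from 0.75 to 1.06 and *Glp1r* from 0.58 to 0.81, and *Gipr* stayed at -0.78.

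After the genotype means were subtracted, the deviations of *Gcgr*, *Glp1r*, *Ffar1*, *Sstr3*, *Galr1* and *Adra2a* moved together across the 8 arrays, with Pearson's r between 0.59 and 0.94 over 15 pairs. These 6 were grouped because their r was high, and over all 45 pairs of the 10 receptors r ran from -0.54 to 0.94. These arrays share a slide and a normalization, and WT replicate 1 contributes to every pair. *Gipr* had a different profile, with r of -0.18 against *Gcgr* and 0.77 against *Adcyap1r1*. Among 16472 genes well above background on all arrays, the deviations most like those of *Gipr* belonged to *Gm35778* (0.986), *2810403A07Rik* (0.982) and *Ushbp1* (0.967). Those most like *Gcgr* belonged to *Plxna3*, *Nat10* and *Tsacc* (0.996 to 0.995), and those most like *Glp1r* to *Sbk1*, *Hdac2* and *Csgalnact2* (0.993 to 0.989). For *Chrm3* they were *Pde2a* (0.987), *2310015A10Rik* (0.976) and *Cd34* (0.972). With 8 arrays and so many genes, values of this size are a description of likeness only.

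Genes of the signalling pathway around the receptors were counted in 7 lists that held 127 genes, of which 118 were tested. These lists include 20 related receptors and 8 peptide ligands beside the genes that carry the signal onward. One gene was called, and 15 had higher and 19 lower signal at an unadjusted p under 0.05, together 28.8% beside 24.5% of all genes. The called gene was *Prkar1a*, the regulatory subunit that holds protein kinase A inactive until cyclic AMP binds. On its called probe, A_55_P2020781, the signal was -5.57, -5.21, -5.51 and -4.64 in βUCP2Tg and -3.75, -3.49, -3.71 and -3.86 in WT islets. All transgenic arrays were below all WT arrays, with a log2 fold change of -1.53 (SE 0.21), or 2.89-fold lower, and an adjusted p of 0.0399. This probe was dim but well above background on all 4 arrays of each group, and with the normexp correction its log2 fold change was -0.58 (adjusted p = 0.0146), just under the 1.5-fold limit. With each array left out in turn the value stayed between -1.73 and -1.42, but it was called in 2 of the 8 fits, those without βUCP2Tg replicate 4 or WT replicate 1, and not in the other 6. It was also not called with no filter on dim probes (adjusted p = 0.0772) or with the replicate number as a block (adjusted p = 0.133). Its other probes were lower by less: A_55_P2020786 gave -0.78 (adjusted p = 0.0722) and A_55_P2737079 gave -0.69 (adjusted p = 0.104), neither of them called. With normexp they gave -0.74 (adjusted p = 0.0360) and -0.69 (adjusted p = 0.0461), and both were called.

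Upstream of protein kinase A, none of the 24 G protein subunits was called, and 2 had higher and 3 lower signal at an unadjusted p under 0.05. Counts of higher and lower signal in the lists below are at that level too, which 24.5% of all genes reached. *Gnas*, which encodes the α subunit of Gs, differed by 0.16 (SE 0.10, adjusted p = 0.333), *Gnai2* by 0.11, *Gnao1* by 0.09 and *Gnaq* by 0.02. The 5 subunits with an unadjusted p under 0.05, like those named below at that level, were picked after their values were seen. They were *Gnai3* at -0.49 (adjusted p = 0.0927), *Gng4* at -0.34 and *Gng12* at -0.32, all without overlap between the groups, and *Gng7* at 0.82 and *Gnai1* at 0.23. Of the 22 tested genes for cyclic AMP synthesis and its effectors, *Prkar1a* alone was called, and 3 had higher and 5 lower signal. Adenylyl cyclase *Adcy5* was well above background on 1 βUCP2Tg and 3 WT arrays and differed by -0.79 (adjusted p = 0.108), *Adcy8* was too dim to test, and *Rapgef4*, which encodes Epac2, differed by -0.02 (adjusted p = 0.929). The largest difference on a highest-signal probe in this list was that of *Crem*, a transcription factor responsive to cyclic AMP, at -1.44 (SE 0.27, adjusted p = 0.0635), with the groups not overlapping. Of 15 phosphodiesterases, which degrade cyclic AMP, none was called and 2 had higher and 4 lower signal. *Pde3b* differed by 0.16 and *Pde8b* by 0.06, and the list median was -0.08. The largest difference in the list was that of *Pde10a*, at -1.19 (SE 0.24, adjusted p = 0.0663), with the groups not overlapping.

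In the phospholipase C branch none of 13 genes was called, and 2 had higher signal at an unadjusted p under 0.05. *Itpr1*, the calcium channel of the endoplasmic reticulum opened by inositol trisphosphate, differed by 0.29 (SE 0.10, adjusted p = 0.137), and *Plcb1* by 0.14. Among 23 genes for receptor desensitisation, comprising receptor kinases, arrestins and RGS proteins, none was called, 2 had higher and 6 lower signal, and the median was -0.09. β-arrestin 1, *Arrb1*, differed by -0.32 (SE 0.12, adjusted p = 0.145), *Rgs4* by -0.47 (adjusted p = 0.312) and *Rgs16* by 0.18. The largest difference in the list was that of *Rgs1*, at -1.36 (SE 0.45, adjusted p = 0.125) with overlap, and the smallest adjusted p that of *Rgs2*, at -0.85 (SE 0.16, adjusted p = 0.0635) without overlap. Of 14 tested related receptors, none was called, and 2 had higher and 1 lower signal. *Vipr2*, a Gs-coupled receptor for VIP and PACAP, differed by 1.32 (SE 0.30, 2.50-fold, adjusted p = 0.0823) with overlap between the groups, *Ffar2* by 0.44 and *Glp2r* by -0.31. Of 7 tested peptide ligands none was called and 2 had higher signal at an unadjusted p under 0.05. The hormone these receptors adjust was read by *Ins1* at -0.16 (adjusted p = 0.434) and *Ins2* at -0.18 (adjusted p = 0.315).

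**Figure D4:**
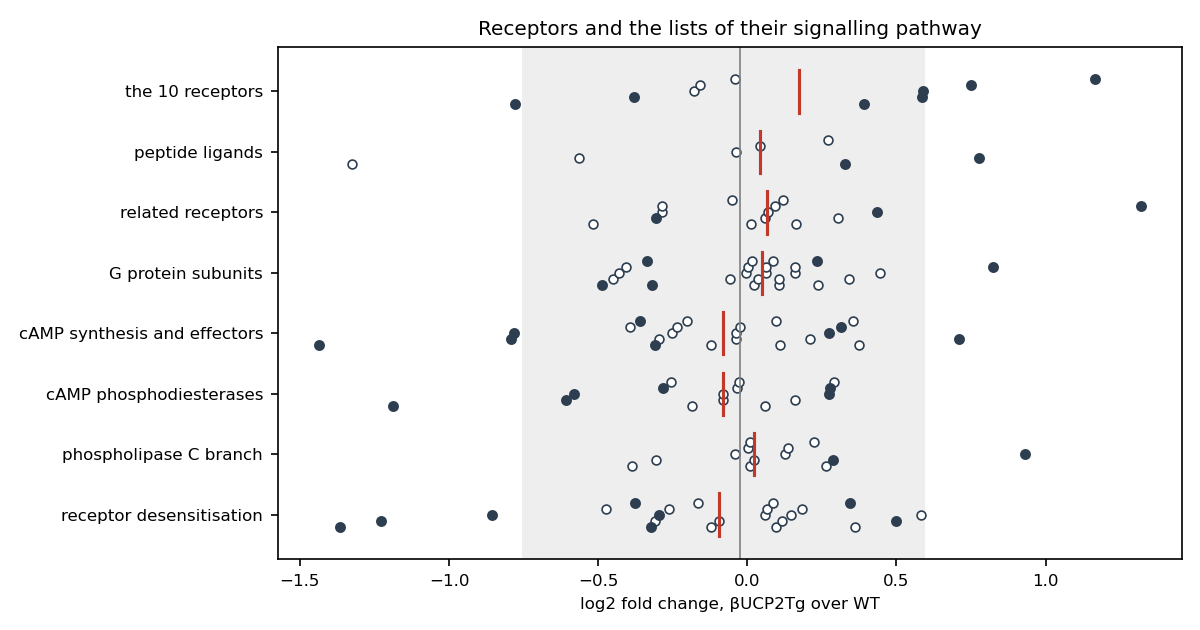
Log2 fold change of βUCP2Tg over WT (x axis) for each tested gene of the 10 receptors and of 7 pathway lists (y axis); filled points have an unadjusted p under 0.05, red bars are list medians, and the grey band holds 90% of all probes tested, from -0.75 to 0.59. List medians lie between -0.09 and 0.07, and that of the receptors at 0.17.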

How the data were processed

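Arrays were scanned and read by the authors with Agilent Feature Extraction (version 9.1 in the submitters' notes, 10.7.3.1 in the file headers), and the deposited scanner files give spot intensity on a linear scale after background subtraction, without scaling between arrays. The authors also deposited GeneSpring normalized values on the log2 scale, which equal the scanner values shifted by a constant per array and were used as an alternative. Their fold changes and p-values in that table were not used. No spot was saturated. Control spots and 48 to 106 outlier spots per array were left out, the log2 of the processed signal was shifted by the 75th percentile of each array, and spots of a probe were averaged. The percentile was 9.00 to 9.16 in βUCP2Tg and 8.78 to 8.89 in WT arrays. A probe was taken as measured where 50% or more of its spots were flagged well above background, and probes measured on 4 or more arrays were tested with limma 3.58.1 in R 4.3.3 (lmFit and eBayes, Benjamini-Hochberg adjustment over all of them). Receptors, pathway lists, marker lists and other named genes were chosen with earlier results of these data known. Named genes are the receptors, called genes of the lists, chosen members of each list, and the 3 genes most like a receptor. The probe with the highest mean stands for a gene, and a gene was called when any of its probes was. Summed marker signals are log2 of the summed normalized linear signals. All arrays lay on 1 slide, and each row of the slide held 1 genotype, so slide position and genotype cannot be told apart. The number of arrays limits the precision. The files' coordinates are on mm9, no genome of that build was used here, and no positions are given. Galr1 and protein sequences are not shown here. Plots were drawn with matplotlib 3.10.9.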

Additional observations from a re-analysis of the deposited data

How the results depend on the processing

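*Gipr*, *Gcgr*, *Glp1r*, *Ffar1*, *Gpr119*, *Sstr3*, *Chrm3* and *Adcyap1r1* kept their sign under all 25 alternatives. *Galr1* turned positive with scaling to the median of all probes (0.019) and with the mean of its probes (0.0036). With both βUCP2Tg replicate 4 and WT replicate 1 left out, *Galr1* was at 0.24 and *Adra2a* at 0.066, and with both WT replicates 1 and 3 left out, *Galr1* was at 0.10. These omissions of 2 arrays were chosen after seeing the data, and the cause of each change was not tested. With 1 array left out in turn, *Galr1* ranged from -0.25 to 0.15, *Adra2a* from -0.26 to -0.043, the probes called from 8 to 3759, the receptors called from 0 to 4, those at an unadjusted p under 0.05 from 3 to 7, and those without overlap from 2 to 6. Probes called numbered 21 with no filter on dim probes, 38 with a filter at 1 array, 237 with one at all 8 arrays, 816 with normexp, 379 with an intensity trend, 5486 without βUCP2Tg replicate 4 and WT replicate 1, and 273 without WT replicates 1 and 3. The Student's t-test that the methods name for comparing groups, run here on these values, called 26 after and 2832 before Benjamini-Hochberg adjustment. For the arrays the methods name GeneSpring, so these are not the study's own counts. Receptors called numbered 0 with no filter or a filter at 1 array, which test more probes, and 2 with normexp (*Gcgr* and *Gipr*). They numbered 4 and 2 with the respective pairs of arrays left out. With that t-test they numbered 0 after and 3 before adjustment, and 4 had an unadjusted p under 0.05, as did 8016 of 35363 probes. Receptors without overlap numbered 6 and 7 with those pairs left out, beside 15478 of 34324 and 12051 of 34147 probes. With the replicate number as a block 14 probes and 0 receptors were called. Deviations of samples with the same number had r of 0.44, -0.05, -0.01 and -0.24, beside -0.47 to 0.46 for different numbers. Neither the methods nor the labels say that the numbers mark pairs, so they were not taken as pairs. Normexp also gave 0.40 for *Glp1r* and 0.36 for *Gpr119*. *Ffar1*, a dim probe, moved most (0.03), while *Adcyap1r1*, also dim, stayed at -0.17. All alternatives for *Prkar1a* were added after seeing the data.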
